A study of Mus musculus with 4 samples.

Results

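The transferrin receptor and the genes that store, export and sense iron were followed in hypoxic mouse proximal tubular cells. They are 10 genes of the 22063 listed in the count table: Tfrc, Slc11a2 and Steap3 for uptake, Fth1, Ftl1 and Ncoa4 for storage and its turnover, Slc40a1 for export, and Aco1, Ireb2 and Fbxl5 for iron sensing. They were taken by symbol, and they had been chosen with their counts and their change between these same libraries in view. The levels and changes of these 10 genes are therefore a description, without a test. Standard errors printed beside their changes come from the fit over all genes and are not to be read as a test of these 10.

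RNA-sequencing was made from 4 libraries of TKPTS cells, a mouse renal proximal tubular epithelial cell line that the labels call TKPT. The groups of 2 libraries each were: si-NC (replicates 2 and 3), transfected with a scrambled siRNA and labelled as wild type, and si-Itgb6 (replicates 1 and 3), transfected with an siRNA against Itgb6 and labelled as an Itgb6 knockdown. Itgb6 encodes the β6 subunit of integrin αvβ6, and the comparison asks what changes in injured tubular cells when this integrin is silenced. All 4 libraries came from cells kept for 24 h in 1% O2 with 5% CO2 and then for 12 h in normal oxygen, so cells that had not been hypoxic were not analysed here. A cell line is a single source. The methods speak of biologically independent replicates for the experiments in general but do not say whether these libraries came from separate cultures. The p-values thus measure the spread between these samples, which may in part be technical. The test estimates that spread with information shared across genes, not from the libraries of each gene alone.

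The libraries held 15435087 to 17220285 counts. Values are given in the order si-NC replicates 2 and 3, then si-Itgb6 replicates 1 and 3. The targeted gene, Itgb6, showed no lower level under its own siRNA, at 285 and 284 counts under si-NC against 279 and 260 under si-Itgb6 (log2 fold change -0.01, standard error, SE, 0.13). Groups are therefore named here by their labels, and directions are those of the libraries so labelled. The paper states that silencing was checked by qPCR and western blot. It reports lower αvβ6 protein in hypoxic cells given the Itgb6 siRNA, which counts of mRNA do not show. Of 11 proximal tubule markers, 4 (Slc34a1, Slc5a2, Slc22a6 and Slc22a8) were at 0 in all libraries, and the list summed to 31.7 and 35.7 CPM (counts scaled to a common library size) in si-NC and 47.1 and 46.8 CPM in si-Itgb6, most of it from Aqp1. The 5 epithelial keratin and adhesion markers summed to between 4631 and 4906 CPM. Markers of endothelium and erythroid cells summed to at most 4.31 and 0.65 CPM, with Hbb-bs and Hbb-bt at 0.

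Cells take up iron mainly as transferrin bound to the transferrin receptor, keep it in ferritin shells made of heavy and light chains, and release it through ferroportin. The iron regulatory proteins IRP1 and IRP2 bind a hairpin in the mRNA, the iron-responsive element, when iron is scarce: bound in the 3' UTR of Tfrc they protect the mRNA from decay, and bound in the 5' UTR of ferritin and ferroportin mRNAs they block translation. Proximal tubule cells reabsorb filtered iron and transferrin, and hypoxia acts on several of these genes through HIF. An mRNA level shows the first kind of control but not the second, since a block of translation need not change the amount of mRNA.

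The hairpins are printed here because they show which members carry the element and on which side of the coding sequence. They were searched in the protein-coding transcripts of GENCODE vM21 (GRCm38, which may not be the build of the files) on the sense strand as a C, any 5 bases, the loop CAGTGN and 5 bases that pair with the 5 before the loop, with at least 4 of 5 pairs and G-U pairs allowed. Capitals mark the bulged C and the loop, and each sequence is 30 bases of a GENCODE transcript, written 5′ to 3′ as DNA.
Tfrc element 1: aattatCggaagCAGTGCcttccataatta
Tfrc element 2: cattatCgggagCAGTGTcttccataatgc
Tfrc element 3: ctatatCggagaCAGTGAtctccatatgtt
Tfrc element 4: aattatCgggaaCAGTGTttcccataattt
Slc11a2 element: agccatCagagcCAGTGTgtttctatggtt
Fth1 element: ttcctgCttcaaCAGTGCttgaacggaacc
Ftl1 element: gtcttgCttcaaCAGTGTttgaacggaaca
Slc40a1 element: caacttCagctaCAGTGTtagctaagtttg

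The 4 Tfrc matches lie on the plus strand at chr16:32631219-32631248, chr16:32631598-32631627, chr16:32631663-32631692 and chr16:32631710-32631739, in the 3' UTR of 1 of its 3 protein-coding transcripts, the one of 4890 bases. They start at bases 3321, 3700, 3765 and 3812 of that transcript, so the last 3 stand close together and the first apart. The Slc11a2 match lies on the minus strand at chr15:100395152-100395181, in the 3' UTR of the transcript of 4415 bases, and it has 4 of 5 pairs where all the others have 5. The transcript of Slc11a2 with 3025 bases ends in another 3' UTR and holds no match.

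The other 3 matches are in 5' UTRs, on the side of storage and export. The Fth1 match (chr19:9982732-9982761, plus strand) is in 4 of 5 protein-coding transcripts, the Ftl1 match (chr7:45459778-45459807, minus strand) in 1 of 2, and the Slc40a1 match (chr1:45925464-45925493, minus strand) in 1 of 4. Fth1 and Ftl1 have the same 5 bases on either side of the loop, ttcaa before it and ttgaa after it, whereas the 4 Tfrc elements differ from each other in these bases. In all, 5 of 10 members held a match in a UTR and none held one in the coding sequence. Over the 21500 protein-coding genes searched, 4.98% held a match in either UTR. By part, 0.953% held a match in a 5' UTR, 4.04% in a 3' UTR and 6.43% in the coding sequence. A match by itself is thus found in many other genes, least often in 5' UTRs, and is a description of letters. With all 5 pairs required, 4 members kept a match and the share of genes with a match in either UTR was 0.74%.

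**Figure D1:**
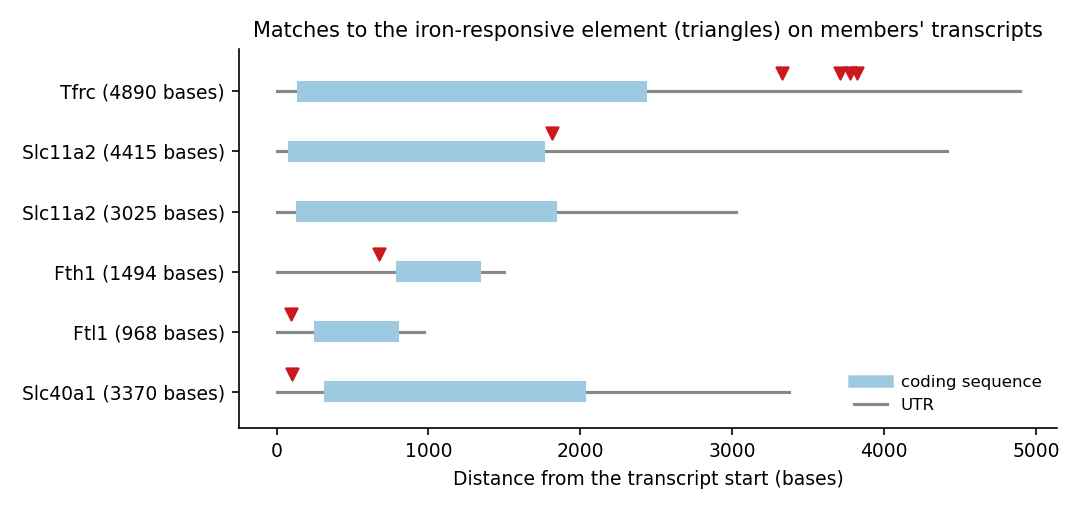
Transcripts of the members with a match, drawn to scale by distance from the transcript start in bases, with the coding sequence as a box, UTRs as lines and matches to the iron-responsive element as triangles. Tfrc carries 4 matches after the coding sequence and Slc11a2 carries 1 in its longer transcript only, whereas Fth1, Ftl1 and Slc40a1 carry 1 each before the coding sequence.

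Levels per length were compared with the FPKM values deposited by the authors, which scale the fragments of a gene by transcript length and depth. Ferritin stood far above the rest: Fth1, the heavy chain that oxidizes iron, had a mean of 1968 FPKM over the 4 libraries and Ftl1, the light chain, 1408 FPKM, at percentiles 99.8 and 99.5 of the genes tested. Reads of Ftl1 are shared with a near-identical copy, Ftl1-ps1, which had a mean of 1354 FPKM. The level of Ftl1 depends on how these reads were split, so no order between heavy and light chain is read. Next came Fbxl5 (65.5 FPKM) and Tfrc (64.2 FPKM), whose ranges over the libraries overlapped. Ncoa4 (29.9 FPKM), Aco1 (28.1 FPKM) and Slc11a2 (25.3 FPKM) followed, with overlapping ranges between neighbours, and then Ireb2 (16.6 FPKM). Slc40a1 was low at 2.39 FPKM, percentile 22.9 of the genes tested, and Steap3 lowest at 0.107 FPKM. All other neighbours in this order had ranges that did not overlap. The cells thus held much ferritin mRNA, a moderate amount of transferrin receptor mRNA and little ferroportin mRNA under both siRNAs.

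**Figure D2:**
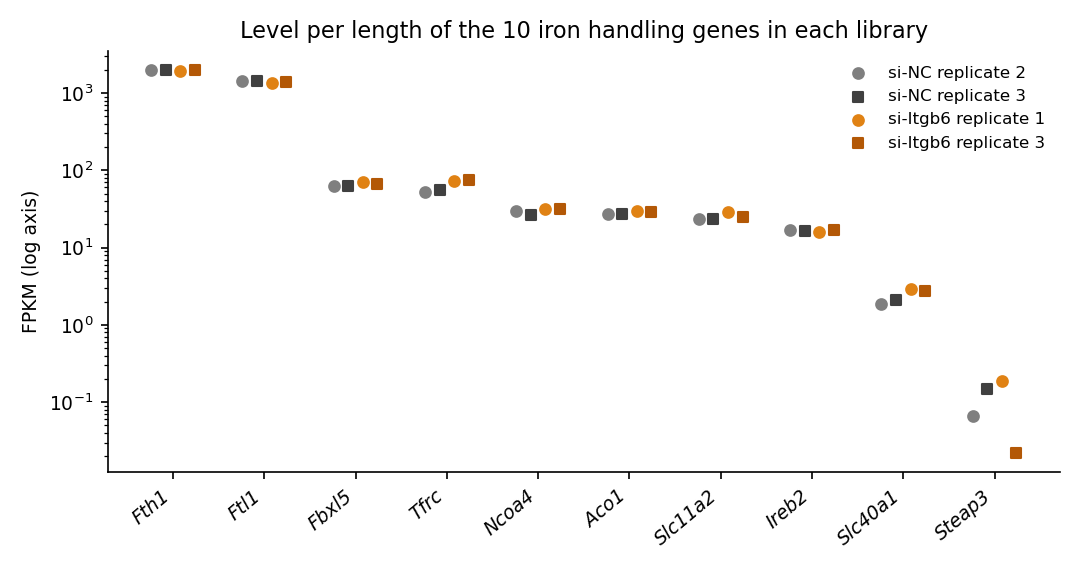
FPKM of the 10 genes in each of the 4 libraries on a log axis, ordered by mean level. The Ftl1 values leave out the reads assigned to its copy, Ftl1-ps1. Fth1 and Ftl1 lie between 1343 and 1995 FPKM, Tfrc lies between 53.2 and 74.5 FPKM, and Slc40a1 is at most 2.88 FPKM in every library.

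Tfrc, the receptor that carries iron-loaded transferrin into the cell, had 4173 and 4650 counts in si-NC, and 5458 and 6025 in si-Itgb6. After normalization this was 255.9 and 269.2 CPM against 352.6 and 366.0 CPM, or 262.6 ± 9.44 against 359.3 ± 9.43 CPM (SD, n = 2 each). Both si-Itgb6 libraries lay above both si-NC libraries, by a gap wider than the distance within either pair. In bulk RNA, more receptor mRNA in every cell and more cells with a high level cannot be told apart. The log2 fold change was 0.45 (SE 0.05), which is 1.37-fold higher in the libraries labelled si-Itgb6. The lengths implied by its counts and FPKM values, 4811 to 4849 bases, are close to the 4890 bases of the transcript that carries the 4 elements. Removing trends with GC content and transcript length from each library lowered the log2 fold change of Tfrc to 0.36.

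The other uptake genes showed no difference of that size. Slc11a2, the divalent metal transporter DMT1 that brings iron out of endosomes, had 74.8 and 75.2 CPM in si-NC and 79.2 and 75.4 CPM in si-Itgb6, a log2 fold change of 0.04 (SE 0.07). The values of the si-Itgb6 libraries were above those of si-NC only by a margin smaller than the distance between the si-Itgb6 libraries themselves. Its FPKM values differed more, at 23.5 and 23.8 against 28.7 and 25.2. The transcript length implied by counts and FPKM went from 3200 and 3172 bases in si-NC to 2773 and 2950 bases in si-Itgb6. That spread of 14.1% across libraries was reached by 14.3% of the 8858 genes with at least 100 counts in every library, and isoforms with and without the element cannot be resolved from counts per gene. Exons of Slc11a2 also overlap those of Gm5475, and without strand information the reads cannot be told apart. Steap3, an endosomal reductase that serves transferrin-bound iron in erythroid cells, had 3, 5, 8 and 1 counts, did not pass the filter on low counts, and no change could be read at this depth.

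The storage genes were nearly level. Fth1 had 1717 and 1702 CPM in si-NC and 1703 and 1778 CPM in si-Itgb6, with overlapping groups and a log2 fold change of 0.03 (SE 0.04). Ftl1 had 1385 and 1394 CPM in si-NC and 1296 and 1380 CPM in si-Itgb6, a log2 fold change of -0.05 (SE 0.04), and the lower position of si-Itgb6 came mostly from replicate 1. The reads of Ftl1 are shared with a near-identical copy, Ftl1-ps1, and the counts of both are not whole numbers. Ftl1 held between 51.2% and 52.5% of their sum in every library, and the summed counts, 43496 and 46814 in si-NC and 39192 and 43251 in si-Itgb6, gave a log2 fold change of -0.06 (SE 0.04). The split between the copies is thus uncertain but was alike in all libraries. Exons of Ftl1 also overlap those of Gm10252 and Gm22133 in the annotation. With GC and length trends removed, the log2 fold change of Ftl1 turned to 0.02, so no direction is given for it.

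Ncoa4, the receptor that delivers ferritin to lysosomes so that its iron is freed, had 82.3 and 77.5 CPM in si-NC and 92.8 and 93.5 CPM in si-Itgb6. Both si-Itgb6 libraries were above both si-NC libraries, with a log2 fold change of 0.22 (SE 0.07), under the 1.2-fold used by the study as a threshold.

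Slc40a1, ferroportin, the only known exporter of ferrous iron, had 102 and 121 counts in si-NC and 150 and 153 counts in si-Itgb6. This was 6.26 and 7.01 CPM against 9.69 and 9.29 CPM, and the groups did not overlap. The log2 fold change of 0.52 (SE 0.19) was 1.43-fold, close to the 1.37-fold of Tfrc, but it rests on 102 to 153 counts per library and has a wider SE. Uptake receptor and exporter were thus both higher in the libraries labelled si-Itgb6, and their matches to the element sit on opposite sides of the coding sequence.

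The sensors differed little between the groups. Aco1, which encodes IRP1 and works as cytosolic aconitase when it holds an iron-sulfur cluster, had 103.0 and 104.2 CPM in si-NC and 113.4 and 110.9 CPM in si-Itgb6, a log2 fold change of 0.11 (SE 0.07). Ireb2, which encodes IRP2, had 97.6 and 93.9 CPM in si-NC and 91.7 and 99.4 CPM in si-Itgb6, with overlapping groups and a log2 fold change of 0.00 (SE 0.07). Fbxl5, the iron- and oxygen-binding adaptor that marks IRP2 for degradation, had 167.9 and 175.2 CPM in si-NC and 192.5 and 180.9 CPM in si-Itgb6, a log2 fold change of 0.12 (SE 0.06). Exons of Fbxl5 overlap those of Bst1 in the annotation. IRP activity is set by protein stability and cluster assembly, which mRNA levels do not show.

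Of the 9 members that passed the filter on low counts, 2 (Tfrc and Slc40a1) were past 1.2-fold and 6 were within 1.1-fold. The groups did not overlap in 7 of the 9, 6 of them higher in si-Itgb6 and 1, Ftl1, lower, a direction that turned with GC and length trends removed. In 49.2% of all 11727 genes tested the groups did not overlap either, and 21.2% were past 1.2-fold, and since the genes were chosen on this contrast nothing is read from these counts. The median log2 fold change was 0.11 for the 9 members and 0.00 over all genes tested.

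**Figure D3:**
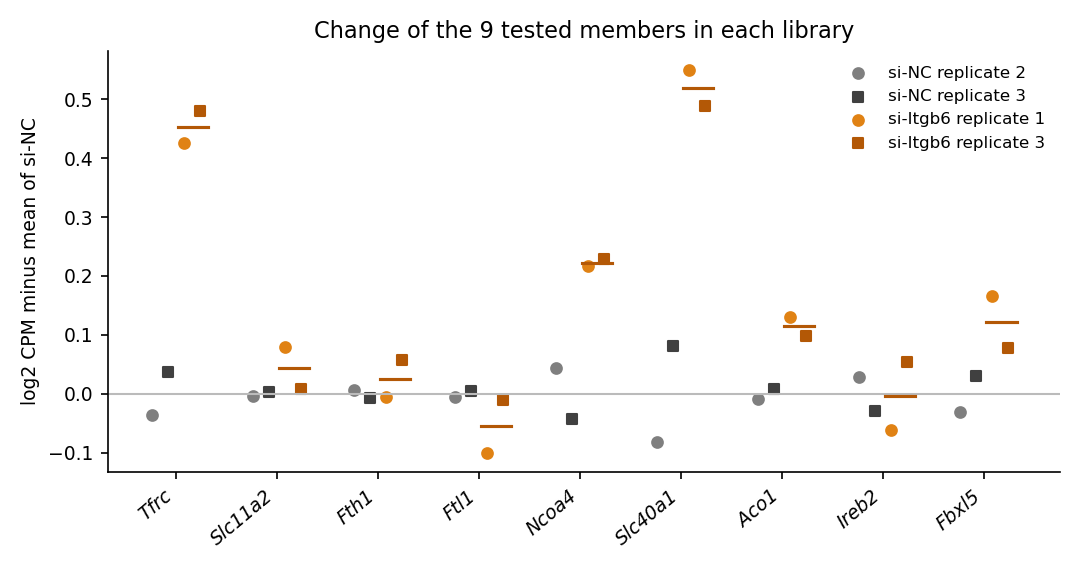
Log2 CPM of the 9 members that passed the filter, in each library, minus the mean of the si-NC libraries. Short lines are the mean of the 2 si-Itgb6 libraries, which stands at 0.45 for Tfrc, 0.52 for Slc40a1 and 0.22 for Ncoa4 and between -0.05 (Ftl1, which turns to 0.02 with GC and length trends removed) and 0.12 for the other 6.

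Uptake was set against storage and export inside each library, which needs no scaling between libraries. The log2 ratio of Tfrc to Fth1 in FPKM was -5.23 and -5.15 in si-NC and -4.72 and -4.72 in si-Itgb6. Tfrc mRNA was thus 2.75% of Fth1 mRNA per length in si-NC and 3.79% in si-Itgb6, a log2 difference of 0.47. The ratio of Tfrc to Ftl1 moved likewise, from -4.76 and -4.70 to -4.19 and -4.24, a log2 difference of 0.51. Ftl1 here leaves out the reads assigned to Ftl1-ps1. The level of this ratio thus depends on that split, which was alike in all libraries. The ratio of Tfrc to Slc40a1 was 4.83 and 4.74 in si-NC and 4.67 and 4.78 in si-Itgb6, with overlapping groups and a log2 difference of -0.06. Relative to the receptor, storage mRNAs were lower in si-Itgb6 while the ratio to the exporter differed by less than the spread of these libraries.

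**Figure D4:**
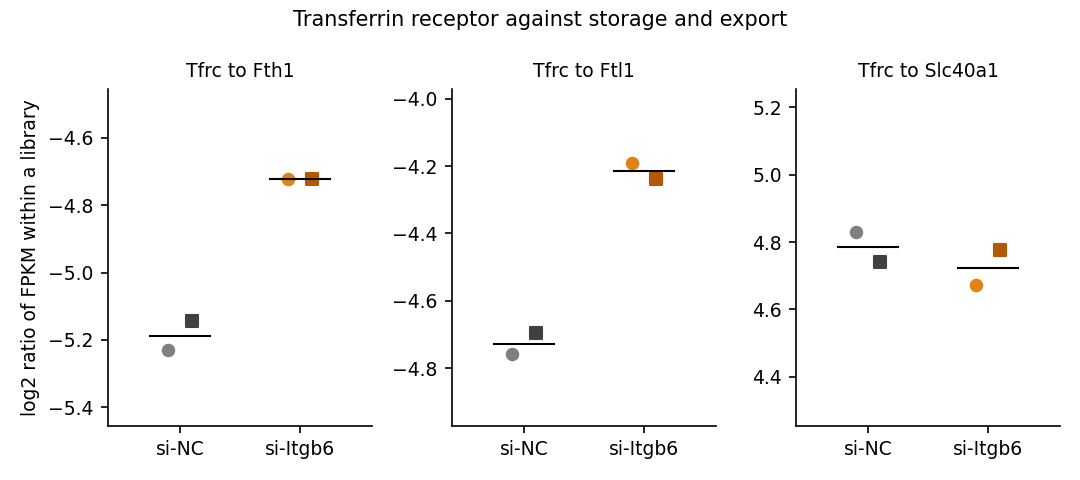
Log2 ratio of Tfrc to Fth1, Ftl1 and Slc40a1 in FPKM within each library, with circles and squares for the libraries and lines for group means; the 3 panels span the same 1.0 log2 units. The ratio to each ferritin is higher in both si-Itgb6 libraries than in either si-NC library, and the ratio to Slc40a1 overlaps.

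The 5 genes nearest to Tfrc in their pattern over the 4 libraries, by the Euclidean distance of centred log2 CPM among 11718 other genes, were Fancl (0.046), Scel (0.048), Ahnak (0.050), Gnai1 (0.050) and Ifi211 (0.057). Scel, for example, which encodes sciellin, had 168.7 and 176.2 CPM in si-NC and 222.4 and 237.8 CPM in si-Itgb6. Ahnak was like Tfrc in counts only: its FPKM values overlapped, at 23.8 and 27.3 in si-NC and 26.6 and 28.0 in si-Itgb6. The counts of Fancl and Ifi211 are not whole. With 4 libraries, likeness of this kind is a description of the pattern and no more, and none of the 5 is on the iron lists.

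Whether other iron genes changed was tested over 8 lists with 129 genes that are not members, of which 113 passed the filter on low counts. A gene was called, with the thresholds of the study, where edgeR's quasi-likelihood test on all genes gave an unadjusted p below 0.05 together with a change of more than 1.2-fold. In the libraries labelled si-Itgb6, 5 of 113 list genes were called lower (4.42%, against 5.20% of all genes tested) and 4 were called higher (3.54%, against 4.37%). At an adjusted p under 0.05 with no fold threshold, 4 were lower (3.54%, against 2.52% of all genes) and 5 higher (4.42%, against 2.11%). The median log2 fold change over the lists was -0.01. The shares for the lists thus lay below those of all genes with the fold threshold and above them with adjusted p-values, and nothing particular to the lists is read from either.

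Among uptake and reduction genes none of 14 tested was called by edgeR or by DESeq2, and 3 had an unadjusted p under 0.05 in edgeR, all lower. Lcn2, the siderophore carrier that injured tubules make and the most abundant of the list, had 641.1 and 661.9 CPM in si-NC and 584.4 and 573.3 CPM in si-Itgb6, a log2 fold change of -0.17 (SE 0.05) with an adjusted p of 0.0322 that did not reach the fold threshold. Of 7 storage and chaperone genes tested, 1 was called lower (14.3%, against 5.20% of all genes). It was Hspb1, a small heat shock protein known to restrain iron uptake, with 639.5 and 677.6 CPM against 566.0 and 520.2 CPM. Its log2 fold change was -0.28 (SE 0.05), with an adjusted p of 0.000869 in edgeR.

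None of 5 tested genes for iron and haem export was called by edgeR or DESeq2, and 1, Cp, had an unadjusted p under 0.05 in edgeR. Their log2 fold changes were all above 0 in the main setting, with a median of 0.18, against 0.00 over all genes tested. The groups did not overlap in 2 of the 5, against 49.2% of all genes. For Flvcr1, Flvcr2 and Abcg2 the groups overlapped and the change was smaller than its SE, so no shared direction is read. Cp, ceruloplasmin, the ferroxidase that works with ferroportin, had 138.5 and 146.7 CPM in si-NC and 153.4 and 170.1 CPM in si-Itgb6, a log2 fold change of 0.18 (SE 0.06) with an adjusted p of 0.0976. Hephl1, another ferroxidase, had 4, 6, 2 and 3 counts and was not tested. Heph, a ferroxidase that also works with ferroportin, and Hamp, the hormone hepcidin that removes ferroportin, were at 0 counts in all libraries.

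In haem synthesis and breakdown, 1 of 14 genes tested was called lower (7.14%, against 5.20% of all genes). Cpox, the mitochondrial enzyme that makes protoporphyrinogen, had 48.8 and 35.7 CPM in si-NC and 25 and 28 CPM in si-Itgb6, a log2 fold change of -0.67 (SE 0.12) and an adjusted p of 0.000487, the largest change among the called genes of the lists. Hmox1, which breaks haem down and releases its iron, had between 224.3 and 226.3 CPM in all 4 libraries, a log2 fold change of 0.00 (SE 0.05).

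Of 33 genes for mitochondrial iron and iron-sulfur clusters, 1 was called lower (3.03%, against 5.20% of all genes), Iba57, a late cluster assembly factor. It had 6.81 and 7.99 CPM in si-NC and 3.68 and 6.38 CPM in si-Itgb6, and with an adjusted p of 0.174 it did not pass the correction. Hspa9, the mitochondrial chaperone of cluster transfer and the most abundant of the list, had a log2 fold change of 0.03 (SE 0.05). Slc25a37, mitoferrin, named after its values were seen, had an adjusted p of 0.0325 at a log2 fold change of 0.25, just under the fold threshold. It had 129.1 and 150.6 CPM in si-NC and 178.8 and 155.1 CPM in si-Itgb6, and its counts are not whole.

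Regulators held 4 of the 9 calls among 25 genes tested, 2 lower and 2 higher (8.0% each, against 5.20% and 4.37% of all genes). Egln1, the oxygen sensor PHD2 that marks HIF for degradation, had 241.7 and 214.9 CPM in si-NC and 187.6 and 186.5 CPM in si-Itgb6, a log2 fold change of -0.29 (SE 0.06) and an adjusted p of 0.00307. Bmp2, a ligand that can raise hepcidin, had a log2 fold change of -0.43 (SE 0.19) and an adjusted p of 0.206. Rc3h1, the RNA-binding protein Roquin-1 that shortens the life of hairpin-bearing mRNAs, was higher in counts, with 69.7 and 76.7 CPM in si-NC and 96.3 and 89.7 CPM in si-Itgb6, a log2 fold change of 0.35 (SE 0.07) and an adjusted p of 0.00447. In FPKM the groups overlapped, at 8.19 and 9.05 in si-NC and 9.32 and 8.37 in si-Itgb6. The difference of log2(FPKM + 1) for Rc3h1 was 0.03, so its rise was seen in counts only. Nfe2l2, the oxidative stress factor NRF2 that drives ferritin and ferroportin genes, had a log2 fold change of 0.30 (SE 0.08) and an adjusted p of 0.0313, while the adjusted p in DESeq2 was 0.07. Skp1, a subunit of the ligase in which Fbxl5 works and the most abundant of the list, had a log2 fold change of 0.07 (SE 0.05).

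None of 7 tested transcripts known for iron-responsive elements outside the members was called by edgeR or DESeq2, and 0 had an unadjusted p under 0.05. The most abundant, App, had a log2 fold change of -0.04 (SE 0.05). Of 10 ferroptosis genes tested, 2 were called higher. Sat1, a polyamine-degrading enzyme, had 189.5 and 232.7 CPM in si-NC and 268.3 and 278.0 CPM in si-Itgb6, a log2 fold change of 0.37 (SE 0.07) and an adjusted p of 0.000606 in edgeR, while the adjusted p in DESeq2 was 0.126. Slc7a11, the cystine importer, had 43.9 and 40.6 CPM against 49.7 and 52.3 CPM and an adjusted p of 0.0659, so it did not pass the correction, and its counts are not whole. Acsl4, named after its values were seen, had an adjusted p of 0.0109 at a log2 fold change of 0.23. Gpx4, the enzyme that clears lipid peroxides and the most abundant of the list, had a log2 fold change of -0.11 (SE 0.05) with an adjusted p of 0.25.

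These calls were sensitive to the processing. They also rest on the spread shared across genes. The SD of log2 CPM within groups was 0.24 for Cpox and 0.15 for Sat1, against SEs of 0.12 and 0.07. Among the 9 called genes this SD was below the SE only for Nfe2l2 and Slc7a11. With trends for GC content and transcript length removed, Cpox (adjusted p = 0.00318) and Sat1 (adjusted p = 0.023) were the only 2 of the 9 that stayed called. The other 7 kept their direction: Nfe2l2 (log2 fold change 0.26), Rc3h1 (0.24), Hspb1 (-0.16), Egln1 (-0.18) and Slc7a11 (0.17) were under the fold threshold, and Bmp2 (-0.38) and Iba57 (-0.44) had an unadjusted p above 0.05. Leaving out 1 library at a time kept 8 of the 9 without si-Itgb6 replicate 1 (Iba57 lost), 6 without si-Itgb6 replicate 3 (Hspb1, Bmp2 and Slc7a11 lost), 5 without si-NC replicate 2 (Egln1, Bmp2, Nfe2l2 and Sat1 lost) and 6 without si-NC replicate 3 (Hspb1, Iba57 and Slc7a11 lost). Cpox and Rc3h1 were called in all 4 of these fits, although without si-NC replicate 2 their adjusted p was 0.256 and 0.34. On the log2 scale the fold changes over the 4 fits ran from -0.88 to -0.43 for Cpox, from -1.004 to -0.22 for Iba57, from -0.66 to -0.23 for Bmp2, from -0.34 to -0.22 for Hspb1 and from -0.37 to -0.20 for Egln1. Those of the genes called higher ran from 0.28 to 0.42 for Rc3h1, from 0.22 to 0.38 for Nfe2l2, from 0.22 to 0.33 for Slc7a11 and from 0.23 to 0.53 for Sat1.

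**Figure D5:**
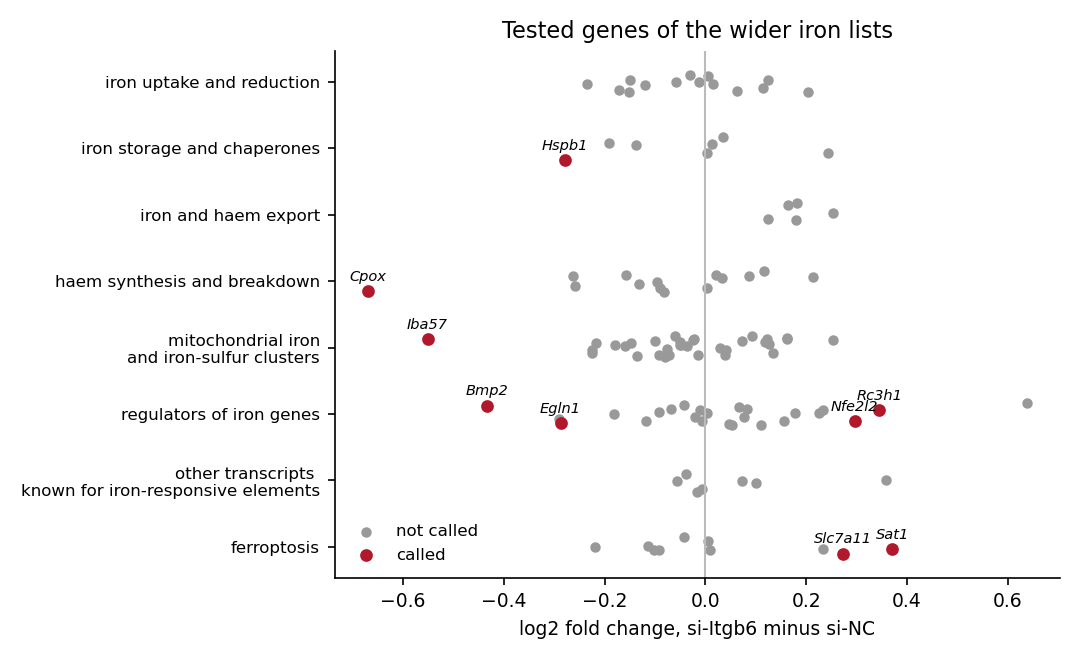
Log2 fold change of each tested gene of the 8 iron lists, si-Itgb6 minus si-NC, with red points for the 9 called genes and grey points for the rest, placed in a row per list. Called genes run from -0.67 for Cpox to 0.37 for Sat1, and each list holds points on both sides of 0 except iron and haem export. In that list the groups overlap for Flvcr1, Flvcr2 and Abcg2.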

How the data were processed

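RNA-sequencing of polyadenylated RNA, in pairs and without strand information, was analysed in 4 libraries. The authors deposited estimated counts per gene, not normalized and not whole for 1447 to 1500 genes per library, and FPKM values. The counting tool, aligner and build of these tables are not given in the sources used here. The study states that its samples were optimized after a cluster analysis. The libraries given are numbered 2 and 3 for si-NC and 1 and 3 for si-Itgb6, so a replicate number is missing from each group. Whether those replicates were left out at that step is not stated. A choice of libraries after clustering could make the spread within groups look smaller, which was not tested. The file of each sample held the same values as the whole table.

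Counts were rounded, filtered with filterByExpr (minimum count 10, minimum total count 15; 11727 genes left), normalized by TMM and fitted in R 4.3.3 by edgeR 4.0.16 (quasi-likelihood), and p-values were adjusted over all genes tested by the Benjamini-Hochberg method. CPM values use TMM library sizes. SE is the absolute log2 fold change divided by the square root of the quasi-likelihood F statistic. It therefore holds the same information as the test and the same spread shared across genes. Implied transcript lengths are counts divided by FPKM and by the library's total. The script was first tested on simulated data. Alternatives were DESeq2 1.42.0, other normalizations, filters and thresholds, GC and length trends removed, differences of log2(FPKM + 1), and leaving out each library. Replicates differed by chi-squares of 3.21 (si-NC) and 4.08 (si-Itgb6) per gene, more than sampling noise. The smallest p of an exact two-sided permutation of 2 libraries against 2 is 0.333.

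The members, the iron lists and the rule for named genes (members, Itgb6, called list genes, the most abundant gene of each list, the 5 genes nearest to Tfrc, copies and overlapping genes of members) were chosen with earlier results of these data known. Positions, transcripts and sequences are from GENCODE vM21 (GRCm38).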

Additional observations from a re-analysis of the deposited data

How the results depend on the processing

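No paired analysis was possible because the groups share only replicate number 3. The Tfrc log2 fold change of 0.45 stayed between 0.36 and 0.49 in 9 alternatives, with 0.36 after GC and length trends were removed. The 5 list genes called lower became 3 with DESeq2, 2 with GC and length trends removed and 1 with a fold over 1.5. The 4 called higher became 3 with these trends removed and 0 with a fold over 1.5 in edgeR. In edgeR, 9 list genes were higher at an unadjusted p under 0.05 alone. Of the genes called in the main setting, only Cpox and Sat1 were also called with the trends removed, so the others called there were new. Leaving out 1 library gave 4 to 7 lower and 4 to 6 higher, where a lone library was assumed to vary like the other group. The direction of Ftl1 reversed to 0.0176 with GC and length trends removed. Fth1 and Ireb2 changed sign between alternatives, within -0.02 to 0.06 and -0.11 to 0.05. With library size only, 61.5% of calls over all genes were lower, against 54.4%. Without genes whose counts are not whole, a choice made after seeing the data, 5 were lower and 3 higher, with the call of Slc7a11 lost. Trf, left out in the same step, had not been tested and could not change these counts. The causes of these shifts were not tested. With 2 libraries per group, changes of low genes such as Slc40a1 are imprecise, and Steap3 could not be compared.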

Other observations

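Genes outside the members whose 5' UTR held a match to the iron-responsive element numbered 140 among those tested, and 11 of them were called lower (7.86%, against 5.20% of all genes) and 6 higher (4.29%, against 4.37%) in the libraries labelled si-Itgb6. Of 630 such genes with a match in the 3' UTR, 40 were called lower (6.35%) and 30 higher (4.76%). The median log2 fold changes were 0.01 and 0.02.

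Trf, the gene of transferrin itself, had 0 and 2 counts in si-NC and, in si-Itgb6, 27 in replicate 1 and 6 in replicate 3. It did not pass the filter on low counts. In the same order Col1a1 had 0, 1, 22 and 2 counts, Col1a2 had 0, 0, 11 and 0, Lyz2 had 0, 0, 11 and 0 and Dcn had 0, 0, 5 and 1, while Pdgfrb had 52, 55, 35 and 47, Cd68 had 1704, 1968, 1534 and 1617 and Ptprc had 3, 1, 0 and 6. Of the markers named, the first 4 thus had the highest counts and the last 3 the lowest counts in the library with the most Trf. These counts are not scaled for depth, and that library was the smallest, at 15435087 counts. No order of scaled levels is therefore read for Cd68. The genes were picked after their values were seen. Over the whole lists, the 6 fibroblast markers summed to 3.19 and 3.47 CPM in si-NC and 4.85 and 3.28 CPM in si-Itgb6, with Acta2 at 0, and the 6 macrophage markers to 132.2 and 141.1 CPM and to 127.0 and 120.9 CPM, nearly all from Cd68 and Csf1r. The part of other cells in the Trf counts was not tested.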
